A study of Mus musculus with 30 samples.

Results

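The guanylate-binding proteins and immunity-related GTPases are interferon-inducible GTPases, and 9 of their genes were followed here: Gbp2, Gbp3, Gbp4, Gbp5 and Gbp7, and Irgm1, Irgm2, Igtp and Iigp1. The members were chosen by symbol, 1 row each, from the 25611 gene rows of the count table, and all 9 passed the filter on low counts that left 14808 genes to test. RNA was sequenced from mouse dendritic cells grown from bone marrow for 6 to 7 days with 200 ng/ml FLT3L. Cultures were Rubcn KO or Rubcn WT and were untreated, or received, for 30 min or 4 h, OVA protein or apoptotic Jurkat cells, Jurkat being a line of human leukaemic T cells. Each of the 10 groups (KO or WT, untreated, OVA 30 min, OVA 4 h, Jurkat 30 min and Jurkat 4 h) held 3 libraries, 30 in all. All cultures shared the FLT3L medium, and the labels give neither the design of the Rubcn allele nor the strain, the age or the number of mice.

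Members of both families are GTPases that interferon-gamma, and for many genes also type I interferon, induces. The guanylate-binding proteins assemble as coats on bacteria and on vacuoles that hold pathogens, and several of them promote inflammasome signalling through caspase-1 and caspase-11. Among the immunity-related GTPases, Irgm1, Irgm2 and Igtp (also called Irgm3) are regulators that reside on the cell's own membranes and keep effectors such as Iigp1 (also called Irga6) inactive there, and Igtp has been linked to lipid bodies and cross-presentation in dendritic cells. Placement of these proteins on vacuoles uses the ATG conjugation system, parts of which also serve LC3-associated phagocytosis, the process in which the protein Rubicon, encoded by Rubcn, takes part.

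The genes lie in clusters on the mm10 build. Gbp5 (Entrez 229898, chromosome 3, 142496934 to 142522344), Gbp7 (229900, 142530336 to 142550151), Gbp3 (55932, 142560044 to 142573213) and Gbp2 (14469, 142620663 to 142638008) follow each other on the plus strand. Gbp4 (17472) lies on chromosome 5, 105115767 to 105139586, on the minus strand. Igtp (16145, chromosome 11, 58199556 to 58207592) and Irgm2 (54396, 58214977 to 58222783) are neighbours on the plus strand, and Irgm1 (15944, 48865245 to 48871420) lies on the minus strand of the same chromosome. Because these genes moved together in the results below, the 250 bases before each start were read from RefSeq (GRCm38.p6, the assembly of mm10). Windows were read for 7 members, and 2 motifs were searched on both strands. The first was the core of the interferon-stimulated response element (GAAA, 2 bases of any kind and GAAA again), and the second was the gamma-activated site (TTCNNNGAA, a palindrome). In the stretches below, 5′ to 3′ along each gene, capitals mark the bases of these motifs, and a response element on the other strand appears as its reverse complement. They come from chr3:142620589-142620628, chr3:142559984-142560029, chr3:142496684-142496905 and chr3:142530215-142530307 (all plus strand), chr11:58199496-58199546 and chr11:58214887-58214937 (plus strand) and chr11:48871421-48871465 (minus strand).
Gbp2: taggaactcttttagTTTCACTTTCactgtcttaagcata
Gbp3: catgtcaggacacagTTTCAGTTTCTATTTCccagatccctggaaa
Gbp5: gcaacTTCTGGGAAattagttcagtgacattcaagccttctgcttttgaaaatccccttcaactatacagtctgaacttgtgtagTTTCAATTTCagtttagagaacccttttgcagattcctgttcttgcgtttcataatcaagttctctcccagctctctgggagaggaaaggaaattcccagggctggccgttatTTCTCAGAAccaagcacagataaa
Gbp7: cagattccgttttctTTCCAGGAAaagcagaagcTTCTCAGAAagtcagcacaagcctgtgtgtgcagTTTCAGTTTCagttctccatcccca
Igtp: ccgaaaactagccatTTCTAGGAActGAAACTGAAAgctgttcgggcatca
Irgm2: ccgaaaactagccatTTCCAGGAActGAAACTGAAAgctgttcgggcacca
Irgm1: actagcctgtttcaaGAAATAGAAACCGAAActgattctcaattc

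The response element core stood in 7 of the 8 windows of these members (Gbp3 has windows at 2 starts, and the one at its second start held neither motif). The same letters stood in 2.98% of all 32851 promoter windows of that length. The gamma-activated site stood in 4 of the 8 windows, those of Gbp5, Gbp7, Igtp and Irgm2, against 7.02% of all windows, and both motifs in the same 4, against 0.332% of all. Gbp3 and Irgm1 each held 2 overlapping matches to the core, with the last bases 30 and 15 bases before the start. Igtp and Irgm2 shared 49 of the 51 bases of their stretches. A match to these letters is a description and does not show that a factor binds there. Gbp4 had no entry. Windows on chromosome 18, where Iigp1 lies, were not read for the members.

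Total counts ranged from 9.73 M to 51.6 M per library, with a median of 44.9 M. Levels are CPM (reads of a gene scaled to 1 M reads of a library, with TMM-scaled library sizes). Dendritic cell markers were present (in untreated WT, Flt3 566.7 ± 16.4, Itgax 486 ± 14.9 and Zbtb46 88.7 ± 2.47 CPM; SD, n = 3), and 1 of 6 was called between genotypes in untreated cells, lower in KO. Rubcn was at 73.6% of WT in untreated KO and at 78.4% to 84.7% in the other conditions (edgeR FDR at most 0.00148 in the 5 conditions), without overlap between genotypes. Its counts are per gene and do not separate exons. Marker sums of several cell types moved with genotype. Basophil or mast cell genes summed to 22.2 to 28.6 CPM in untreated WT and 56.6 to 87.5 CPM in untreated KO (7 of 7 called higher there and in each of the other conditions). Stromal genes summed to 669 to 752 and 832 to 1076 CPM (6 of 8 called higher). Of all tested genes, 9.97% were called in either direction in untreated cells. Natural killer genes summed to 137 to 168 and 149.7 to 161 CPM (0 of 6 tested called). Sums for plasmacytoid cells were 1819 to 1859.9 in WT and 1648 to 1784 CPM in KO (1 of 7 higher and 2 lower). They were 2119.8 to 2322 and 2233 to 2294 for conventional type 1 cells (1 of 5 lower), 916 to 939 and 986 to 1016 for type 2 (2 of 5 higher), and 3595 to 3989 and 3799.9 to 4351 for monocytes or macrophages (1 of 6 higher). Their part in the results was not tested.

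KO Jurkat 30 min library 1 stood apart from its group, and KO OVA 30 min library 3 was the library of 9.73 M. In the former all 9 members were the highest of the group, at 1.31 (Gbp4) to 4.99 (Iigp1) times the mean of libraries 2 and 3. The coefficient of variation of each member was highest in that group, from 17.2% for Gbp4 to 99.2% for Iigp1, against medians over the 10 groups of 5.29% (Irgm1) to 13.4% (Iigp1). The test shares 1 estimate of the spread over all groups, so that library enters the error of every comparison. Where leaving out these 2 libraries changed a count of members called, both counts are given below, and each other count was the same without them. Because KO Jurkat 30 min library 1 is set apart here by the members' own values, the counts without it are no independent test. The titles do not say whether libraries of a group came from separate mice, so p-values measure only the spread between these libraries.

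In untreated WT cells Irgm1 had the highest level per length, at 23.1 ± 0.487 CPM per kb of exon (SD, n = 3). Igtp followed at 12.3 ± 0.12, Gbp2 at 11.4 ± 0.414 and Irgm2 at 8.48 ± 0.202 CPM per kb. The rest lay lower, with Gbp4 at 4.41 ± 0.404, Gbp3 at 2.68 ± 0.0886, Gbp5 at 1.52 ± 0.0855, Gbp7 at 1.08 ± 0.0581 and Iigp1, the effector, at 0.514 ± 0.124 CPM per kb. No neighbours in this order overlapped between their libraries. After 4 h of apoptotic Jurkat cells the order in WT began with Gbp2 (335 ± 59.5 CPM per kb), Igtp (221 ± 19.9) and Irgm1 (185 ± 13.4), and Gbp5, low before, stood at 109 ± 17.4 CPM per kb. Gbp4 and Gbp7 were last there, at 31.3 ± 4.67 and 31.1 ± 5.16 CPM per kb.

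Across the 10 groups, each member was highest in WT Jurkat 4 h and next highest in KO Jurkat 4 h, without overlap between them, and WT OVA 4 h was the third. The lowest group was untreated KO or KO OVA 30 min for each, and the libraries of these 2 groups overlapped. Between those ends, neighbouring groups mostly overlapped: for Gbp2 the groups WT OVA 30 min, WT Jurkat 30 min, untreated WT, KO Jurkat 30 min and KO OVA 4 h each overlapped with the next. The plot of levels by library shows this order for every member.

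**Figure D1:**
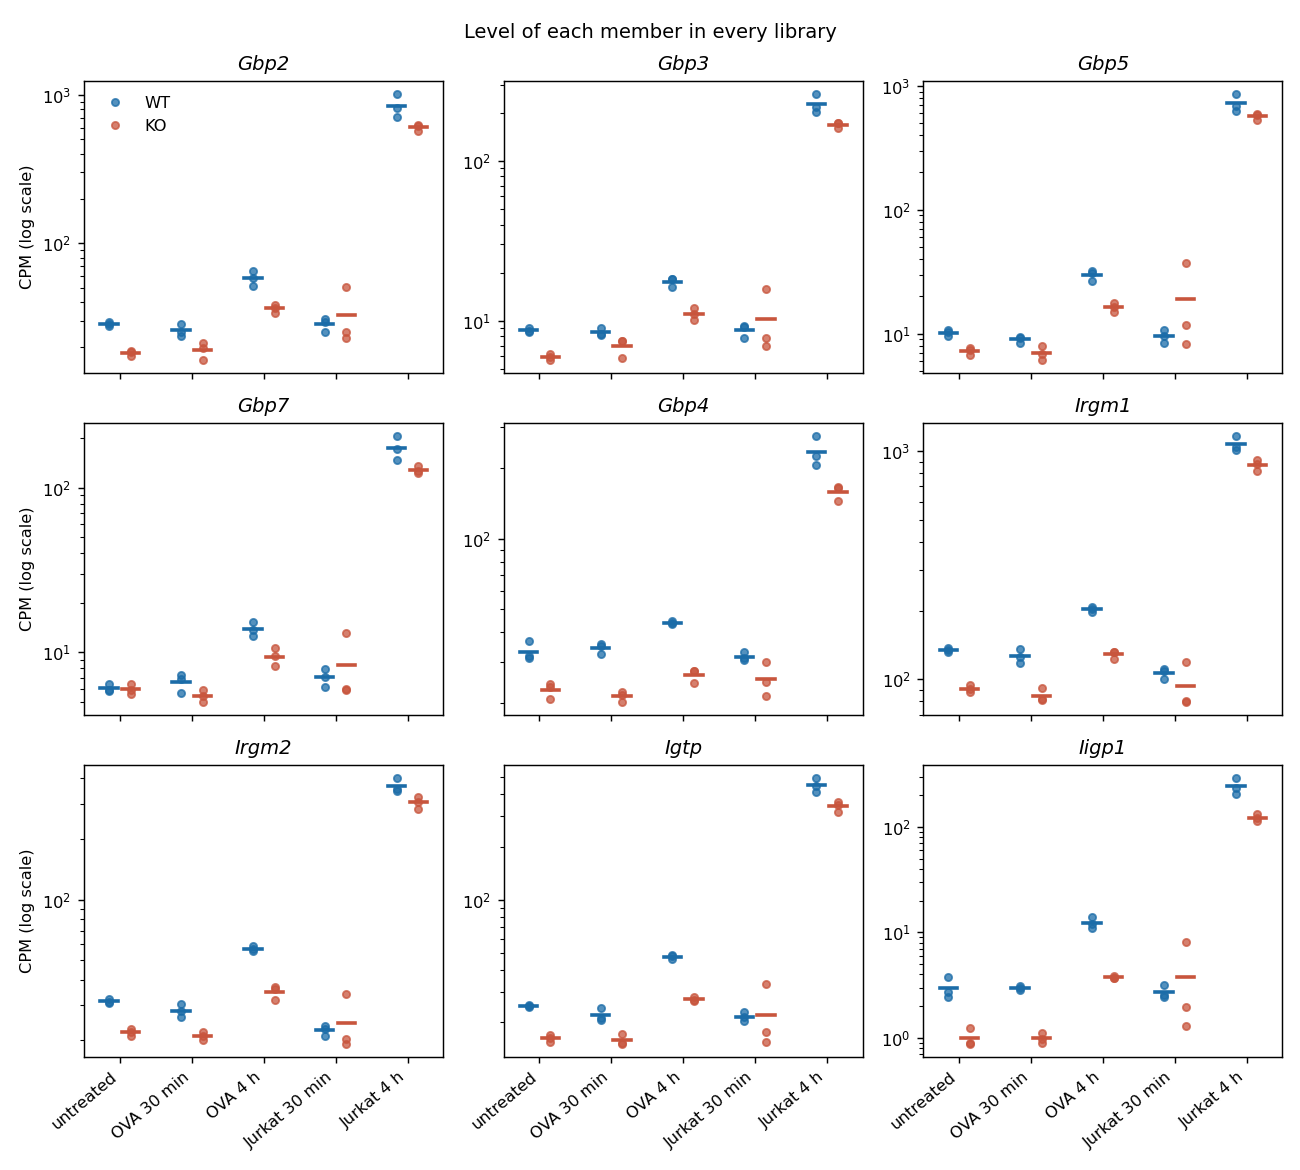
Level of each member in every library, as CPM on a log scale (y axis, 1 panel per gene) by condition (x axis), with points for the 3 libraries of each WT (blue) and KO (red) group and bars for their means. The Jurkat 4 h libraries lie above all others, KO points lie below WT at OVA 4 h and Jurkat 4 h, and 1 KO library of Jurkat 30 min stands above its group.

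In untreated cells most members were lower in KO than in WT. Gbp2 stood at 29.8, 27.7 and 28.5 CPM in the 3 WT libraries and at 18.7, 17.6 and 18.5 CPM in KO. Every KO value was below every WT value, and Gbp2 fell to 63.8% of WT (log2 -0.65, SE 0.181, edgeR quasi-likelihood FDR 0.0191). Here log2 is the fitted log2 ratio of KO to WT, SE its standard error, and FDR the Benjamini-Hochberg adjusted p over all 14808 genes, with a call made under 0.05. Gbp4, the only member on chromosome 5, has been reported to restrain interferon regulatory factor 7. It stood at 36.6, 31.6 and 31 CPM in WT and 24, 23.4 and 20.7 CPM in KO, also without overlap (log2 -0.54, SE 0.0984, FDR 3.91e-04). Gbp3 and Gbp5, the latter a promoter of inflammasome assembly, did not overlap either, but missed the threshold, with log2 ratios of -0.56 (FDR 0.0599) and -0.48 (FDR 0.42). Gbp7, which has been tied to assembly of the phagocyte oxidase, overlapped: it was at 6.43, 5.91 and 5.84 CPM in WT and 6.43, 5.93 and 5.57 CPM in KO. Its log2 ratio was -0.02, with a 95% interval of -0.43 to 0.39, which does not show equality.

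All 4 immunity-related GTPases fell in untreated KO. Irgm1, the regulator with the highest level, was at 131, 134 and 137 CPM in WT and 94, 90.2 and 87.6 CPM in KO, without overlap (log2 -0.57, SE 0.0918, FDR 9.95e-05). Irgm2 and Igtp had log2 ratios of -0.52 (FDR 0.0047) and -0.61 (FDR 0.00764). Iigp1, their effector, was at 3.81, 2.44 and 2.73 CPM in WT and 1.24, 0.891 and 0.882 CPM in KO, so that the highest KO library stood below the lowest WT library (log2 -1.57, SE 0.465, FDR 0.0284). In all, 6 of 9 members were called lower and 0 higher, where 3.97% of all tested genes were called lower (9.97% in either direction), and the median log2 ratio was -0.56 against -0.01 for all tested genes. Libraries of 8 members did not overlap, as against 24.8% of tested genes. Without the 2 libraries named above, 8 were called lower, all but Gbp7. The call of Iigp1 was lost without any 1 of 5 libraries (all but WT library 2), with log2 ratios of -1.75 to -1.37, and that of Gbp2 without WT library 1 or KO library 1 or 2. In these whole cultures fewer cells of a type and less RNA per cell cannot be told apart.

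After 30 min of OVA the members again stood lower in KO. Irgm1 was at 118, 125 and 135 CPM in WT and 91, 80.7 and 81.9 CPM in KO, without overlap (log2 -0.57, SE 0.0939, FDR 1.33e-04). Gbp4 was at 32.2, 35 and 35.7 CPM and 21.5, 20.2 and 22.2 CPM (log2 -0.70, SE 0.105, FDR 4.23e-05). Irgm2 (log2 -0.43, FDR 0.0262) and Iigp1 (log2 -1.57, FDR 0.0413) were the other members that fell, so that 4 of 9 were called lower, against 6.13% of tested genes (12.4% in either direction). The edgeR FDRs of Gbp2, Gbp3, Gbp5, Gbp7 and Igtp were 0.13, 0.308, 0.616, 0.517 and 0.0653, with log2 ratios of -0.44, -0.32, -0.31, -0.25 and -0.45. Gbp7 was the member whose libraries overlapped, and the other 8 did not overlap, against 28.7% of tested genes. With the 2 libraries left out, Gbp2 (FDR 0.018) and Igtp (FDR 8.03e-04) were called lower as well. The call of Iigp1 was lost without any 1 of the 6 libraries and that of Irgm2 without WT library 2 or 3 or KO library 1 or 2.

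After 4 h of OVA all 9 members were lower in KO. Gbp5 was at 32.3, 30.8 and 26.6 CPM in WT and 17.7, 14.9 and 16.4 CPM in KO (log2 -0.86, SE 0.266, FDR 0.0293). Gbp2 was at 65.2, 58.8 and 52 CPM in WT and 38.7, 34.1 and 36.8 CPM in KO (log2 -0.68, SE 0.168, FDR 0.00621). Gbp7, which had overlapped between genotypes in untreated cells, was at 15.2, 13.7 and 12.6 CPM in WT and 9.43, 10.6 and 8.24 CPM in KO (log2 -0.55, SE 0.177, FDR 0.0391). In each of these the lowest WT library lay above the highest KO library. Among the regulators, Igtp was at 48.6, 45.8 and 47.7 CPM in WT and 26.7, 26.5 and 28.1 CPM in KO, a fall to 57.2% of WT (log2 -0.81, SE 0.139, FDR 1.47e-04). Irgm2 was at 55.3, 56.8 and 58.5 CPM in WT and 31.6, 36.6 and 35.8 CPM in KO (log2 -0.72, SE 0.113, FDR 4.31e-05). The effector Iigp1 had the lowest ratio, at 14, 12 and 11.1 CPM in WT and 3.86, 3.73 and 3.66 CPM in KO, or 30.5% of WT (log2 -1.71, SE 0.286, FDR 9.62e-05). No member overlapped between genotypes (33.2% of tested genes did not), and all 9 were called lower, against 6.35% of tested genes (12.6% in either direction). Their median log2 ratio was -0.72, against 0.00 for all genes. All 9 were also called without the 2 libraries. DESeq2 called 7, without Gbp5 and Gbp7, and those 2 calls were also lost without WT library 1 or 2 or KO library 1 or 3 (for Gbp5 also without KO library 2).

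After 4 h of apoptotic Jurkat cells the members were again lower in KO, at levels many times higher. Gbp2 was at 713, 1007 and 812 CPM in WT and 628, 572 and 613 CPM in KO (log2 -0.48, SE 0.154, FDR 0.0234). Gbp4 was at 206, 274 and 225 CPM in WT and 167, 145 and 166 CPM in KO (log2 -0.56, SE 0.0863, FDR 2.82e-05). Iigp1 was at 207, 289 and 232 CPM in WT and 122, 113 and 133 CPM in KO, which was 50.6% of WT (log2 -0.98, SE 0.184, FDR 2.79e-04). No member overlapped between genotypes (36.5% of tested genes did not), and 7 of 9 were called lower, against 13.5% of tested genes (22.9% in either direction). Gbp5 (log2 -0.35, 95% interval -0.78 to 0.08, FDR 0.274) and Irgm2 (log2 -0.27, FDR 0.0541) were the exceptions. Without the 2 libraries all 9 were called. The spread within WT was carried by library 2, the highest for all 9 members, with library 1 the lowest for all 9, and in KO library 2 was the lowest for all 9. Without WT library 2 or without KO library 2 only 2 members, Gbp4 and Iigp1, were called. DESeq2 called 3 (Gbp4, Irgm1 and Iigp1), and scaling by total counts ended the edgeR calls of Irgm1 and Igtp. T-lineage genes, markers of the kind of cell that was fed, summed to 172 to 210.1 CPM in WT and 151 to 172 CPM in KO at this time, and their part in the difference was not tested. Basophil or mast cell genes summed to 25.5 to 38.2 CPM in WT and 79.5 to 111 CPM in KO. Plasmacytoid cell genes summed to 2086 to 2514 CPM in WT (library 2 highest) and 1776 to 1976 CPM in KO (library 2 lowest). Sums for conventional type 2 cells were 574 to 603 CPM in WT and 651 to 698 CPM in KO. Those for natural killer genes were 59.7 to 66.6 and 71.6 to 79.9 CPM, and for stromal genes 949 to 1091 and 1185 to 1455 CPM. The part of these sums in the difference was not tested.

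**Figure D2:**
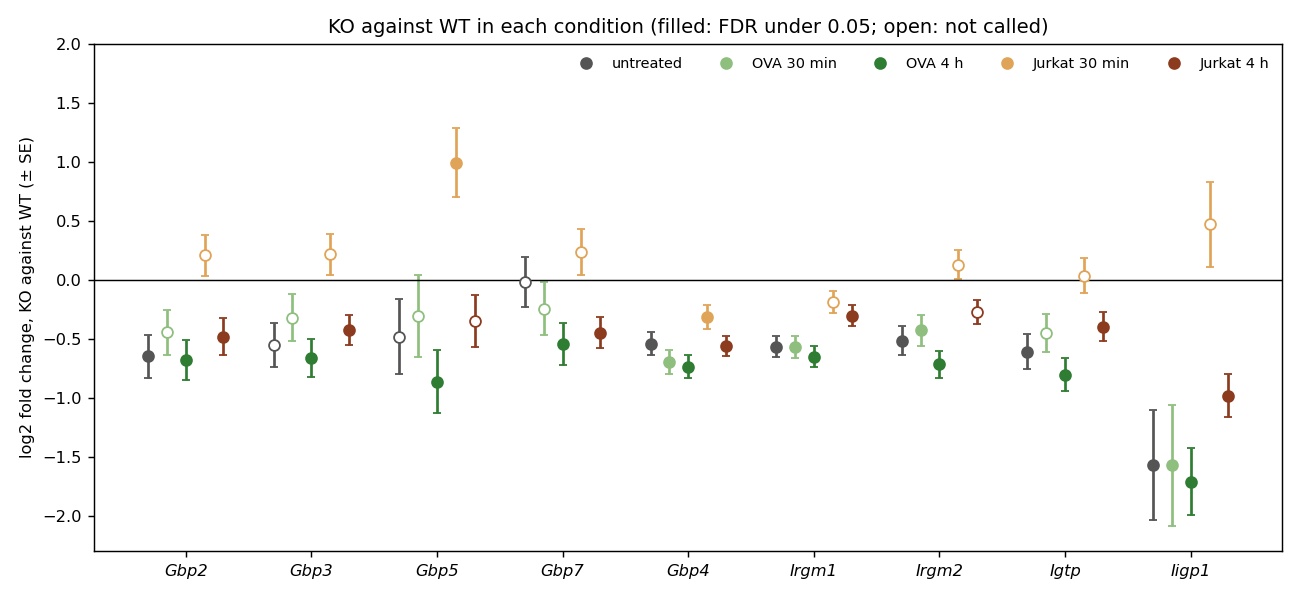
Fitted log2 ratio of KO to WT (y axis, with SE bars, from 3 libraries a group) for each member (x axis) in the 5 conditions (colours), filled where the edgeR FDR was under 0.05. Iigp1 had the lowest ratios in the conditions other than Jurkat 30 min, and the Jurkat 30 min points, which include library 1 of KO, lie highest for every member.

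Apoptotic Jurkat cells for 30 min gave another picture, which turned on 1 library. Iigp1 was at 3.17, 2.42 and 2.57 CPM in WT and 8.1, 1.3 and 1.95 CPM in KO, so that KO library 1 lay above all WT libraries and KO libraries 2 and 3 below them. Gbp5 was at 9.58, 10.7 and 8.47 CPM in WT and 37.2, 8.26 and 11.7 CPM in KO, with the same high library 1. Gbp2 was at 29.6, 30.8 and 25.3 CPM in WT and 50.6, 23.1 and 25.2 CPM in KO. Library 1 lay above the WT range for 8 members and, for Gbp4, below it. With all libraries, 2 of 9 members were called against WT (9.25% of tested genes were called in either direction, 3.67% lower and 5.58% higher): Gbp4 lower (log2 -0.32, SE 0.098, FDR 0.0403) and Gbp5 higher (log2 0.99, SE 0.29, FDR 0.0286), although Gbp5 overlapped. Without the 2 libraries 3 were called, all lower: Gbp4 (log2 -0.45, edgeR FDR 0.00414), Irgm1 (-0.41, 1.29e-04) and Igtp (-0.38, 0.00378). Gbp5 then had a log2 ratio of 0.06 (FDR 0.86), and the median of the 9 moved from 0.21 to -0.25. KO library 1 was the highest of its group for all 9, so leaving it out necessarily lowers each KO mean. Leaving out any 1 library of the 6 other than KO library 1 ended the call of Gbp4, and leaving out any 1 of the WT libraries or KO library 1 ended that of Gbp5. In KO library 1 the interferon-inducible chemokine genes Cxcl9 and Cxcl10, named after their values were seen, were 8.91 and 6.92 times the mean of libraries 2 and 3. Irf1, the gene of an interferon regulatory factor, was at 1.11 times that mean, and Ifng had a count of 0 in library 1. The cause was not tested.

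Against untreated KO cells, 5 members were called higher in KO after 30 min of Jurkat cells, where 8.72% of tested genes were (17% either way): Gbp2, Gbp3, Gbp5, Igtp and Iigp1, with log2 ratios of 0.85, 0.77, 1.39, 0.44 and 1.91. Igtp was also lost without any 1 of the 3 untreated KO libraries. Without the 2 libraries 2 of them were called, Gbp2 (log2 0.40, edgeR FDR 0.0354) and Gbp5 (0.46, 0.0404). In WT no member was called higher at this time and 2 of 9 were called lower, where 14.5% of tested genes were (28.7% either way): Irgm1 fell from 134 ± 2.83 to 106 ± 5.39 CPM (log2 -0.34, SE 0.0914, FDR 0.0063) and Irgm2 from 31.3 ± 0.745 to 22.4 ± 1.2 CPM (log2 -0.48, SE 0.12, FDR 0.00309). Without the 2 libraries 3 were called lower, with Igtp the added one (log2 -0.21, edgeR FDR 0.0285). T-lineage genes summed to 130.4 to 136 CPM in those WT libraries, against 87.4 to 93.2 CPM in untreated WT. The difference between the responses of KO and WT (the interaction) was called for 0 of 9 members, as for 0.00675% of tested genes, though 7 had an unadjusted p under 0.05 (edgeR), as 7 had with DESeq2. Its largest value was that of Iigp1 (log2 2.04, SE 0.592, FDR 0.374), which became 0.83 without the 2 libraries, and without KO library 2 alone 6 members were called.

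**Figure D3:**
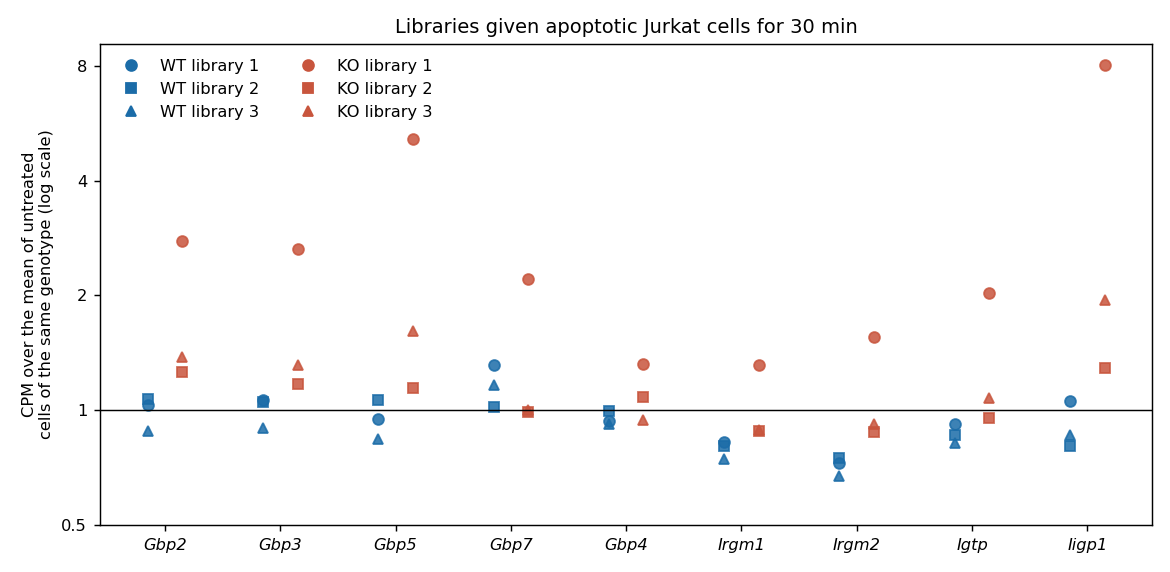
Level of each member (x axis) in each library given apoptotic Jurkat cells for 30 min, divided by the mean of the 3 untreated libraries of the same genotype (y axis, log scale). KO library 1 (red circles) lies above 1 for all 9 members and above the other KO libraries. The WT libraries (blue) all lie below 1 for Gbp4, Irgm1, Irgm2 and Igtp and above 1 for Gbp7.

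No member was called after 30 min of OVA, and nearly all rose after 4 h. At 30 min 0 of 9 were called in WT and 0 of 9 in KO, where 10.7% and 3.77% of tested genes were called, and 0 had an unadjusted p under 0.05 with edgeR or DESeq2. Log2 ratios to untreated cells ran from -0.18 to 0.13 in WT and from -0.10 to 0.18 in KO. At 4 h all 9 rose in WT, where 11.9% of tested genes were called higher (23.5% either way). Iigp1 rose most, 4.13-fold, from 2.99 ± 0.721 to 12.4 ± 1.5 CPM (log2 2.04, SE 0.297, FDR 6.12e-06). Gbp5 rose 2.95-fold (log2 1.56, SE 0.28, FDR 1.15e-04), Gbp7 2.28-fold and Gbp2 2.04-fold. Irgm1 rose 1.51-fold and Gbp4 least, 1.33-fold (log2 0.41, SE 0.0944, FDR 0.00186). In KO 8 of 9 rose, where 5.94% of tested genes were called higher (11.6% either way), and no treated library overlapped with untreated ones for any member in WT (as for 37% of tested genes) or in KO (32%). Iigp1 rose 3.74-fold there, from 1.004 ± 0.204 to 3.75 ± 0.103 CPM (log2 1.90, SE 0.446, FDR 0.0045), and Gbp4 was not called (log2 0.21, SE 0.1001, FDR 0.187). The same counts, 9 and 8, were found without the 2 libraries. The call of Gbp7 in KO (log2 0.66) was lost without untreated library 2 or 3 or OVA 4 h library 1 or 2.

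Members rose by fewer CPM in KO at 4 h of OVA, and those other than Gbp7 did so from a lower start. Untreated Gbp7 overlapped between genotypes (means 6.06 CPM in WT and 5.97 CPM in KO), and it gained 7.76 and 3.45 CPM. Iigp1 gained 9.37 CPM in WT and 2.74 CPM in KO (the difference of group means), Gbp2 gained 29.996 and 18.3 CPM, and Irgm1 gained 68.5 and 38.4 CPM. On the log2 scale the response of KO was not called different from that of WT for any of the 9 at 4 h of OVA (0.0405% of tested genes were), and 0 had an unadjusted p under 0.05 with edgeR or DESeq2. Interaction values ran from -0.53 to -0.03, below 0 for all 9. The lowest was that of Gbp7, -0.53 (95% interval -1.07 to 0.01, FDR 0.693), and that of Iigp1 was -0.14 (SE 0.584). At 30 min of OVA 0 of 9 were called as well (0% of tested genes), with 0 under an unadjusted p of 0.05 by either tool. The 95% intervals of the 9 at 4 h of OVA reached from -1.29 to 1.003.

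At 4 h apoptotic Jurkat cells raised all 9 members in both genotypes. Iigp1 rose 81.3-fold in WT, from 2.99 ± 0.721 to 243 ± 42 CPM (log2 6.34, SE 0.263, FDR 3.62e-19), and 122-fold in KO, to 123 ± 9.91 CPM (log2 6.93, SE 0.306, FDR 1.89e-18). Gbp5 rose 71.8-fold in WT, from 10.6, 9.49 and 10.2 to 631, 855 and 694 CPM, and 78.7-fold in KO, to 592, 531 and 587 CPM. Gbp2 rose 29.4-fold and 33.1-fold, Gbp7 28.8-fold and 21.4-fold, and Gbp3 25.9-fold and 28.3-fold, in WT and KO. Among the regulators, Igtp rose 18-fold and 20.8-fold, Irgm2 11.7-fold and 13.9-fold, and Irgm1 8.001-fold and 9.59-fold. Irgm1 was at 1013, 1162 and 1046 CPM in WT and 912, 817 and 876 CPM in KO. Gbp4 had the lowest ratio, 7.1-fold in WT and 6.997-fold in KO. Median log2 ratios were 4.69 in WT and 4.42 in KO. Tested genes called higher were 38.9% in WT (79.5% either way) and 37.5% in KO (78.5%), so that a call alone sets few genes apart here. Libraries did not overlap for any member, nor for 79.4% and 79% of tested genes.

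Scaling matters for these levels: with total counts in place of TMM, the median log2 ratio of all genes at Jurkat 4 h moved from -0.02 to -0.42 in WT and from -0.03 to -0.37 in KO. The members still ran from 2.42 (Gbp4) to 5.94 (Iigp1) in WT under that scaling. Cd3e, a defining T-cell gene, was at 0.0778 CPM in untreated WT, 2.05 CPM at 30 min and 6.09 CPM at 4 h of Jurkat cells. Cd3g was at 0.283, 0.732 and 1.66 CPM in the same groups. Cd3d, from the same list, did not rise, at 0.112, 0.111 and 0.0387 CPM. In KO, Cd3e was at 0.0819, 1.26 and 4.08 CPM and Cd3g at 0.254, 0.385 and 0.979 CPM, in the same order. At each Jurkat time Cd3e and Cd3g were lower in KO than in WT without overlap, while Cd3d overlapped. In KO the T-lineage sum was 100.2 to 107 CPM in untreated cells (4 of 20 tested genes were called higher than in WT) and 116 to 126 CPM at 30 min of Jurkat cells, and its part in the responses was not tested. Markers of the cultured cells shifted too between untreated WT and 4 h of Jurkat cells: Flt3 was at 229.9 ± 2.11 and Itgax at 341 ± 21.8 CPM at 4 h (SD, n = 3), and Zbtb46 at 110.3 ± 5.62 CPM. The 6 dendritic cell markers summed to 14871 to 17075 CPM before and 27383 to 28870.2 CPM after (4 called higher, 2 lower). Sums after 4 h were 59.7 to 66.6 CPM for natural killer genes, 1627 to 1737 for conventional type 1, 574 to 603 for type 2, 2086 to 2514 for plasmacytoid cells and 2947 to 3226 for monocytes or macrophages. The part of these shifts in the members' rise was not tested.

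Compared with OVA at the same time, Jurkat cells at 4 h raised all 9 in WT (37.2% of tested genes were called higher, 77.5% either way) and in KO (36.3% and 76.4%), with median log2 ratios of 3.66 and 3.76. The ratio ran from 5.3-fold for Irgm1 to 24.4-fold for Gbp5 in WT, and from 6.04-fold for Gbp4 to 34.8-fold for Gbp5 in KO. At 30 min the same comparison in WT called 2 members lower (12.3% of tested genes were, 24.3% either way), Irgm1 (edgeR FDR 0.0499) and Irgm2 (FDR 0.0465), and DESeq2 called 0. Both were lost without any 1 WT Jurkat library or without WT OVA library 2 or 3. In KO it called 3 higher (5.3% of tested genes were, 10.2% either way), Gbp2, Gbp5 and Iigp1, and 0 without KO Jurkat library 1, alone or with the other library. Gbp2 was also lost without KO OVA library 1, and Iigp1 without KO OVA library 1 or 2. The response to Jurkat cells at 4 h was called different between genotypes for 0 of 9 members, against 4.26% of tested genes, with 0 under an unadjusted p of 0.05 by edgeR or DESeq2. Its values ran from -0.43 (Gbp7, 95% interval -0.92 to 0.06, FDR 0.368) to 0.59 (Iigp1, -0.42 to 1.59, FDR 0.579). The comparisons with untreated cells and with OVA share the Jurkat libraries and are not independent of each other.

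**Figure D4:**
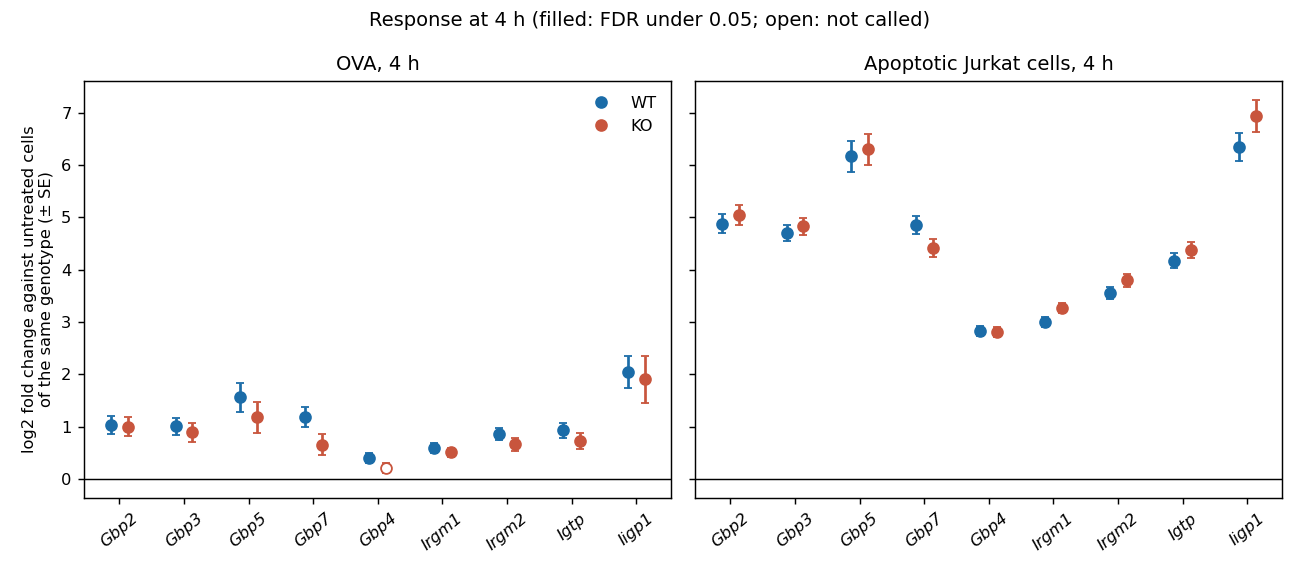
Fitted log2 ratio of treated to untreated cells of the same genotype (y axis, with SE bars, 3 libraries a group) for each member (x axis) at 4 h of OVA (left) and of apoptotic Jurkat cells (right), in WT (blue) and KO (red), filled where the edgeR FDR was under 0.05. Ratios at 4 h of Jurkat cells run from 2.81 to 6.93, all above those at 4 h of OVA, which run from 0.21 to 2.04.

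The genes of the interferon-gamma arm, which induces these GTPases, were read beside them. Ifng itself had 47 counts over all libraries, in 14 of 30, at most 9 in 1 library, and 0 in the 6 untreated libraries, so it was not tested. Its receptor gene Ifngr1 was higher in KO, with untreated levels of 355 ± 10.4 CPM for WT and 386 ± 6.87 for KO (SD, 3 libraries each, edgeR log2 0.12, SE 0.0367, FDR 0.0385), and fell in WT at 4 h of Jurkat cells (log2 -2.39). Ifngr2 was not called in untreated cells (log2 0.08, edgeR FDR 0.0778) and rose at 4 h of Jurkat cells in WT (log2 0.49). Irf1, an interferon regulatory factor, was lower in KO in untreated cells (log2 -0.24), with OVA for 4 h (-0.26) and with Jurkat cells for 4 h (-0.21), and rose with Jurkat cells in WT (2.14). Over the 8 tested genes of this arm, 2 were lower and 1 higher in untreated KO (median log2 -0.10), 3 and 1 at 30 min of OVA, 4 and 1 after 4 h of it, 1 and 0 at 30 min of Jurkat cells, and 2 and 1 after 4 h of them. Of all tested genes, 9.97%, 12.4%, 12.6%, 9.25% and 22.9% were called in either direction in these 5 comparisons, which is the background for the counts of each list here. OVA and Jurkat cells at 4 h raised 4 and 6 of the 8 in WT and lowered 1 and 2. Among those that rose was Socs1, a feedback inhibitor of the pathway (log2 1.08 and 4.72). Tested genes called higher in these treatments of WT were 11.9% and 38.9% (23.5% and 79.5% either way).

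Among the 6 tested genes of the type I interferon arm, 2 were lower in untreated KO (0 higher), 2 after 4 h of OVA, and 4 after 4 h of Jurkat cells. Irf9, part of the complex that binds the response element, had untreated levels of 156 ± 3.45 CPM for WT and 122 ± 3.53 for KO (log2 -0.35, SE 0.0456, FDR 4.15e-06), and its partner Stat2 had a log2 ratio of -0.23 (edgeR FDR 0.0224). Ifnb1, the gene of interferon-beta, had no count in untreated cells and at 4 h of Jurkat cells was at 12.5 ± 3.09 CPM in WT and 3.68 ± 0.44 CPM in KO (log2 -1.77, SE 0.218, FDR 3.86e-06).

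Other genes of the 2 families were also lower in KO. Of 19 tested rows, 9 were lower in untreated KO (median log2 -0.55), 9 at 30 min of OVA, 11 after 4 h of it (median -0.65) and 12 at 4 h of Jurkat cells (median -0.42), and 0 were higher in these 4. At 30 min of Jurkat cells 1 was lower and 1 higher. Tgtp2, an effector encoded near Irgm1, had untreated levels of 23 ± 1.01 CPM for WT and 11.6 ± 0.909 for KO (log2 -0.98, SE 0.13, FDR 5.74e-06). Gm12250, also called Irgb10, stood at 12 ± 0.613 and 6.16 ± 0.429 CPM (log2 -0.96, SE 0.224, FDR 0.0048), and Gbp9 at 30.4 ± 2.55 and 21.3 ± 1.01 CPM, again WT first (log2 -0.51, SE 0.0923, FDR 3.71e-04). At 4 h of OVA Gbp6 had 8.95 ± 0.279 CPM in the WT libraries and 2.41 ± 0.121 in the KO libraries (log2 -1.90, SE 0.234, FDR 1.34e-06). In WT, 8 rose and 1 fell at 4 h of OVA, and 18 rose and 1 fell at 4 h of Jurkat cells. Tested genes called higher there were 11.9% and 38.9% (23.5% and 79.5% either way). In KO 4 rose at 4 h of OVA, and 17 rose and 1 fell at 4 h of Jurkat cells. There 5.94% and 37.5% of tested genes were called higher (11.6% and 78.5% either way). Gbp6 rose from 3.6 ± 0.545 to 103 ± 13.2 CPM in WT (log2 4.84). Gbp8 was at 30.3 ± 2.39 CPM in untreated WT and 37.2 ± 6.12 CPM at 4 h of Jurkat cells, called higher although the libraries overlapped (log2 0.30, edgeR FDR 0.00244). Tgtp2 was the only row of the 19 whose response to 4 h of Jurkat cells was called different between genotypes, larger in KO (log2 0.58, SE 0.167, FDR 0.0419). Of all tested genes 4.26% were called in that comparison, and 1 row of 19 lies near that share. Gbp8 and the interaction of Tgtp2 were named after their values were seen.

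Genes whose products work with these GTPases on vacuoles were read as well. Of 10 ATG conjugation genes, 0 were lower and 1 was higher in untreated KO, and the same at 4 h of OVA: Map1lc3a, an LC3 gene (log2 0.33, edgeR FDR 0.00403, and 0.26, FDR 0.0169). At 4 h of Jurkat cells 2 were higher and 3 lower in KO, with log2 ratios between -0.15 and 0.20. Of the 5 tested ubiquitin and adaptor genes, 1 was lower in untreated KO (Trim21, a ubiquitin ligase, log2 -0.30), 2 with OVA for 4 h and 5 with Jurkat cells for 4 h. Sqstm1, the adaptor p62, rose at 4 h of Jurkat cells in WT (log2 3.21). Of 7 inflammasome genes, 2 were lower in untreated KO, among them Casp1 (log2 -0.27), 6 with OVA for 4 h, and 5 with Jurkat cells for 4 h, when Il1b, the substrate cytokine, was the 1 that was higher in KO (log2 0.44). Casp4, which encodes caspase-11, rose in WT from 9.39 ± 0.295 to 22.6 ± 1.93 CPM at 4 h of OVA and 243 ± 20.6 CPM at 4 h of Jurkat cells. The 3 prenyltransferase genes, whose products attach the lipid that anchors Gbp2 and Gbp5, were not called between genotypes in any of the 5 conditions, with log2 ratios of -0.17 to 0.19.

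Outside the 2 families, the genes whose levels followed the members most closely over the 10 groups were found by the root mean square difference between log2 profiles, each centred on its own mean, among 10703 genes with at least 5 CPM in some group. The 6 nearest to the median profile of the 9 members were Ifih1 (0.0849), Traf1 (0.108), Casp4 (0.120), Mx1 (0.134), Tnfsf10 (0.147) and Mx2 (0.164), in log2 units. Among the members themselves Gbp3 (0.0752), Gbp7 (0.0985) and Igtp (0.114) lay nearest to that profile. Iigp1 (0.745), Gbp4 (0.656) and Gbp5 (0.641) lay farthest, Gbp4 with a flatter profile and Iigp1 and Gbp5 with steeper ones. The points share libraries and the large step at 4 h of Jurkat cells.

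Counts of these genes can share reads with close relatives. Of the 50-base stretches of each member's transcript, the share found also in another gene's transcript was 0% for Irgm1, 2.07% for Gbp2 (with Gbp2b), 2.45% for Gbp5, 3.19% for Iigp1, 4.79% for Gbp3, 7.36% for Irgm2, 12.3% for Igtp (with Irgm2) and 12.8% for Gbp4 and for Gbp7. Iigp1 (60440) lies on chromosome 18, 60373616 to 60392629, on the plus strand, and like the members other than Gbp2 it overlaps no other gene row. The interval of Gbp2 holds the microRNA gene Mir6381 on the other strand, and the use of strand in counting is not given in the sources used here.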

How the data were processed

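The values are integer counts of reads for each gene, which the authors deposited in a single table with a column per library (30 in all), per the file headers. STAR 2.5, Subread with featureCounts 1.5.0-p1, DESeq2 and the mm10 build are named in the submitters' processing notes, and the labels' protocols give TruSeq libraries. Not given in the sources used here: the annotation, the use of strand, and how human reads or reads that match several genes were treated. Total counts of 38.7 M or more in 29 libraries, and 9.73 M in the other, set the precision of the counts.

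Columns were matched to groups by the sample titles. In R 4.3.3, edgeR 4.0.16 was run over all 30 libraries with 1 mean per group: filterByExpr left 14808 of 25611 rows, libraries were scaled by TMM, and contrasts were tested by the quasi-likelihood F test, with Benjamini-Hochberg adjustment over all tested rows and calls at FDR under 0.05. The contrasts were KO against WT in each condition, each treatment against untreated cells, Jurkat cells against OVA at each time, and the interactions. The SE of a log2 ratio was its size divided by the square root of F, and 95% intervals took a normal distribution. The fit was tested on simulated counts with the same spread for every gene, changes placed in untreated KO only and no outlying library. That setting does not cover the spread seen in KO Jurkat 30 min. Alternatives were scaling by DESeq2 size factors or by total counts, no filter or a stricter one, DESeq2 1.42.0, only the groups compared, the replicate number as a block, each library left out in turn and, chosen after seeing the data, the 2 doubted libraries left out at once. The members and lists were chosen with earlier results of these data known.

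All 9 members are named. Of the lists (other genes of the 2 families, interferon-gamma and type I interferon arms, ATG conjugation, vacuole ubiquitin and adaptors, inflammasome, prenyltransferases), called genes with at least 5 CPM were eligible, up to 3 per list and comparison by smallest p, and Ifng, Ifngr1, Ifngr2 and Irf1 in any case (1 further gene of that rule is not reported here). Likeness used log2(CPM + 0.5) of group means. Per-length levels used the union of exons of each gene in GENCODE vM21. Exon lengths and shared 50-base stretches came from the reference transcripts, and promoter windows from RefSeq.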

Additional observations from a re-analysis of the deposited data

How the results depend on the processing

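Counts of called members were compared under each alternative. KO against WT at OVA 30 min (4 called) gave 2 to 3 when 1 library was left out. KO against WT at Jurkat 30 min (2 called) gave 0 with only the groups compared and 0 to 3 when 1 library was left out. KO against WT at Jurkat 4 h (7 called) gave 3 with DESeq2 and 2 to 7 when 1 library was left out. Jurkat 30 min against untreated KO (5 called) gave 0 with only the groups compared, 2 without the 2 doubted libraries and 2 to 6 when 1 library was left out. Jurkat against OVA at 30 min in WT (2 called) gave 1 with the stricter filter, 1 with the replicate block, 0 with DESeq2 and 0 to 2 when 1 library was left out. The same comparison in KO (3 called) gave 5 with no filter on low counts, 0 with only the groups compared, 0 without the 2 doubted libraries and 0 to 7 when 1 library was left out. The interaction at Jurkat 30 min (0 called) gave 0 to 6 when 1 library was left out, and that at Jurkat 4 h (0 called) gave 1, Irgm1, with only the groups compared. Igtp in KO against WT at Jurkat 30 min turned from log2 0.03 to -0.38 without KO Jurkat 30 min library 1 (range -0.38 to 0.24 when 1 library was left out), and to -0.38 without both doubted libraries. For the rest of these changes the cause was not tested.

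Over all tested genes, libraries with the same replicate number showed little likeness. Of 135 pairs with the same number, 11 had a correlation of deviations over 0.1, and the median was 0.0041. Of 30 libraries, 14 correlated best with their own number. Within genotype, 6 of 60 pairs were over 0.1, with a median of 0.0148. Natural killer sums did fall from library 1 to 3 in untreated WT (168, 154 and 137 CPM) and in WT at 30 min of OVA (175, 156 and 147 CPM). They did not at 4 h of Jurkat cells in WT (59.7, 66.6 and 65.9 CPM). Whether libraries with the same number shared a culture was not tested. The replicate block moved 2 of 189 single-member results across their threshold, Iigp1 in KO against WT at OVA 30 min and Irgm2 in Jurkat against OVA at 30 min in WT. Scaling by total counts moved the median log2 ratio of all genes at Jurkat 4 h to -0.42 in WT and -0.37 in KO. Low counts limit Iigp1 in untreated KO, at 0.882 to 1.24 CPM.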

Other observations

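Counted in CPM instead of ratios, the members gained less in KO than in WT at 4 h of apoptotic Jurkat cells. The gain in KO, as a percent of that in WT from the group means, ran from 50.8% for Iigp1 to 84.0% for Irgm2. At 4 h of OVA it ran from 29.3% for Iigp1 to 60.9% for Gbp2. These differences of gains were not tested on this scale. Ifng had mean levels of 0.153 CPM in WT and 0.194 CPM in KO at 4 h of Jurkat cells, which rest on at most 9 counts in a library.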
